A study of Rattus norvegicus with 16 samples.

Results

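Calcineurin is a phosphatase switched on by calcium and calmodulin, and in skeletal muscle it is best known for passing the calcium signal of nerve activity to the nucleus. It removes phosphate from NFAT factors, which then enter the nucleus and, with MEF2 factors, act on genes of slow and oxidative fibres. RCAN proteins bind calcineurin and restrain it, and Rcan1 is itself a gene that NFAT can switch on. The genes described here are 10 members of this pathway: the calcineurin catalytic subunits Ppp3ca and Ppp3cb, the regulatory subunit Ppp3r1, the inhibitors Rcan1 and Rcan2, the factors Nfatc1 and Nfatc3, and the factors Mef2a, Mef2c and Mef2d. They were chosen by name, as every probe set whose single gene symbol in the platform annotation is one of these 10, out of 14217 genes with a symbol of their own. All 10 were found, on 22 of 31042 probe sets.

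Expression was measured on Affymetrix arrays in soleus, a postural muscle of mostly slow fibres, from 16 female rats, 1 array per rat. The rats came from lines selected from N:NIH stock for high running capacity (HCR) or low running capacity (LCR), at generation 16 and about 7 months of age. In each line 4 rats stayed sedentary and 4 ran uphill intervals at 85 to 90% of maximal oxygen uptake on 5 days a week for 8 weeks, with muscle taken 48 hours after the last session. Each of the 4 groups, sedentary and trained rats of either line, has n = 4 rats. The sedentary controls had neither the training nor the weekly oxygen uptake tests that the trained rats ran, and each line was compared at a single generation. Values are log2 expression, so a difference of 1 is a doubling on the array's scale, and the brightest probe set of a gene stands for it unless another is named. Brightness depends on the probes, so no gene's level is set against that of another gene. In whole muscle, a smaller share of a cell type and less RNA per cell cannot be told apart.

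Slow fibre markers, which define soleus, were high on 15 of 16 arrays, and 2 arrays stood apart. Myh7, the slow myosin heavy chain, read on its brightest probe set 14.27 to 14.52 on 15 arrays and 12.05 on HCR trained 3. On HCR trained 3 the mean of 9 slow fibre markers lay 2.11 below and that of 9 fast fibre markers 2.68 above their averages over all arrays. On HCR sedentary 2 the mean of 7 matrix and fibroblast markers lay 1.97 above, and that of 8 macrophage and leukocyte markers 1.34 above, their averages. HCR sedentary 2 gave the highest or the lowest value of all 16 arrays for 9 of the 10 genes, against 27.3% of all probe sets, and HCR trained 3 did so for 5, against 31.0%. The beta-actin control index, the 3' minus the middle control probe set, was 0.38 on HCR sedentary 2 and 1.06 to 2.37 on the other 15 arrays. The highest index, 2.37, was that of HCR trained 2, which was highest or lowest for 20.2% of all probe sets and 0 of the 10 genes. Differences of the 10 genes that turn on these 2 arrays are therefore given with and without them, and those of other genes over all 16 arrays. Correlations were computed without HCR trained 3 but not without HCR sedentary 2.

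In limma's moderated test with Benjamini-Hochberg adjustment over 31042 probe sets, 0 of the 10 genes passed an adjusted p of 0.05 in any of 7 comparisons. The background was small too. It was 0.00966% of all probe sets for HCR minus LCR in sedentary rats, 0.374% for HCR minus LCR in trained rats, 0.187% for training in HCR, 0.00322% for training in LCR and 0% for the interaction. Averaged over the other factor, it was 0.087% for line and 0.00644% for training. At an unadjusted p under 0.05 the counts were 2 of 10 genes for line in sedentary rats (background 8.37%), 5 for line in trained rats (19.7%), 5 for training in HCR (17.7%), 1 for training in LCR (9.76%) and 4 for the interaction (18.3%). For line and training averaged over the other factor they were 4 (10.4%) and 2 (9.55%). The median difference over the 10 genes was 0.19 between trained lines and 0.23 for training in HCR, against 0.04 and 0.00436 over all probe sets. In sedentary rats it was -0.14 between lines, against 0.00573, and it was -0.09 for training in LCR, against -0.02. These medians depend on the choice of the brightest probe set: over all 22 probe sets of the 10 genes the median was -0.09 between trained lines, with 10 higher and 12 lower, and 0.03 for training in HCR, with 13 higher and 9 lower. With these counts, no gene below is called changed, and the values show where the groups did and did not overlap.

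**Figure D1:**
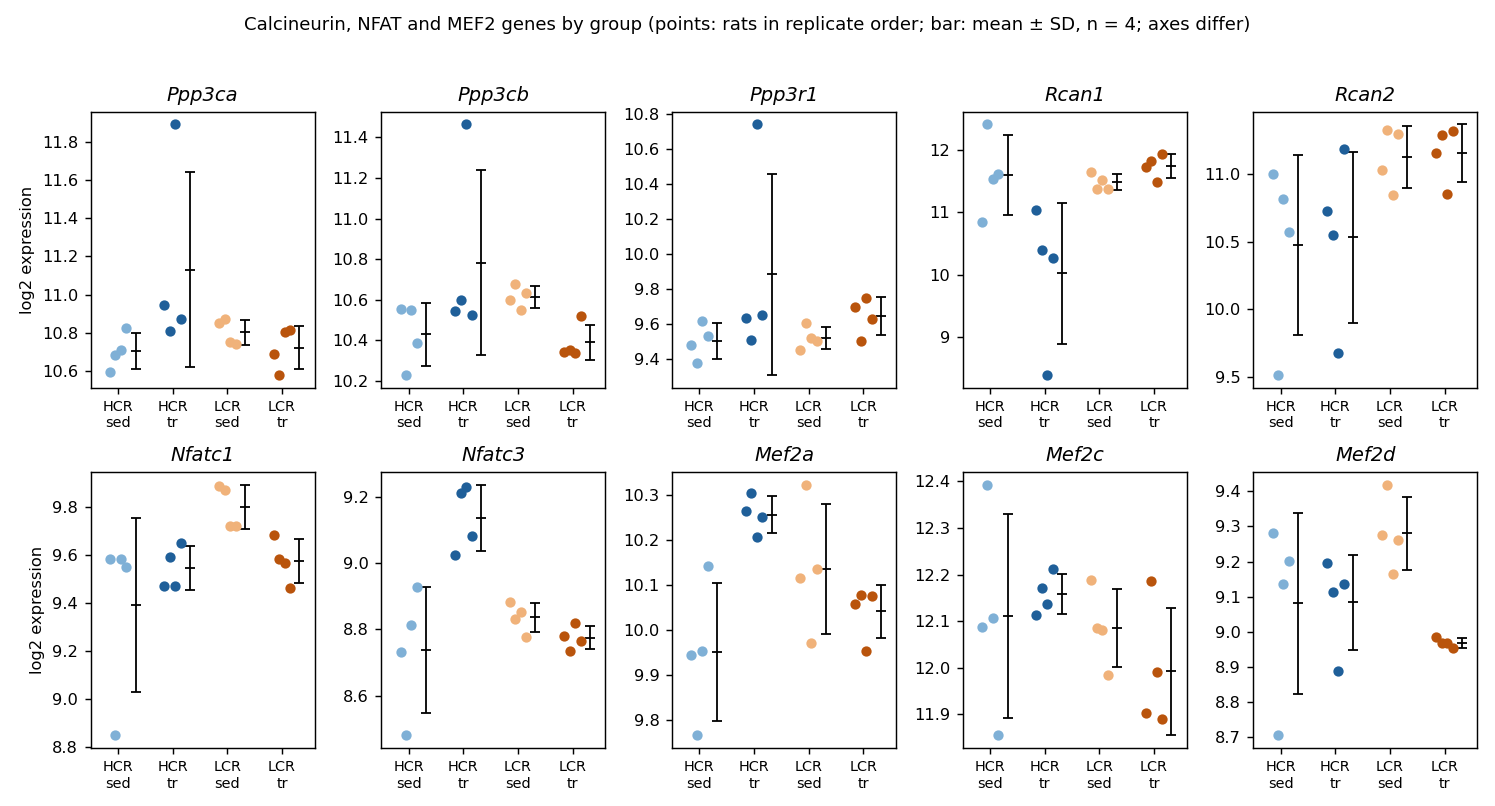
Log2 expression of the 10 genes on the brightest probe set of each, with 1 point per rat in replicate order and a bar for the mean ± SD of each group (n = 4); the vertical axes differ between panels. Ppp3ca, Ppp3cb and Ppp3r1 were highest and Rcan1 lowest on HCR trained 3, and the 4 HCR trained values of Nfatc3 lay above those of every other group.

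On their brightest probe sets, the calcineurin subunits were nearly level on 15 arrays and high together on the array HCR trained 3. Ppp3ca, the alpha catalytic subunit, read 10.95, 10.81, 11.89 and 10.87 on HCR trained 1 to 4, against 10.60, 10.68, 10.71 and 10.83 on HCR sedentary 1 to 4. In LCR it read 10.85, 10.87, 10.75 and 10.74 in sedentary rats and 10.69, 10.58, 10.81 and 10.81 in trained rats. The value on HCR trained 3 lay 0.94 above the highest of the other 15 arrays, and without it the groups spanned 10.58 to 10.95. The difference between HCR and LCR trained rats was 0.41 (SE 0.18, adjusted p = 0.216), and without HCR trained 3 it was 0.15. For training in HCR it was 0.43 (SE 0.18, adjusted p = 0.225), and 0.17 without that array.

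Ppp3cb, the beta catalytic subunit, read 10.54, 10.60, 11.46 and 10.52 in HCR trained rats and 10.34, 10.35, 10.34 and 10.52 in LCR trained rats. The lowest HCR trained value and the highest LCR trained value differed only in the third decimal, so the separation of the groups is marginal. Sedentary values were 10.55, 10.23, 10.55 and 10.39 in HCR and 10.60, 10.68, 10.55 and 10.63 in LCR. All 4 trained LCR rats lay below the 4 sedentary ones (-0.23, SE 0.16, adjusted p = 0.663). On the dimmer probe sets 1379314_at (-0.31) and 1387261_at (0.33) these LCR groups overlapped. HCR trained 3 was again apart, 0.78 above the next array. Between trained lines the difference was 0.39 (SE 0.16, adjusted p = 0.197) with HCR trained 3 and 0.17 without it. For training in HCR it was 0.35 (SE 0.16, adjusted p = 0.273) and 0.13, and for the interaction it was 0.58 (SE 0.23, adjusted p = 0.205) and 0.35.

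Ppp3r1 encodes calcineurin B, the calcium-binding regulatory subunit. It read 9.64, 9.51, 10.74 and 9.65 in HCR trained rats, 9.48, 9.38, 9.62 and 9.53 in HCR sedentary rats, 9.45, 9.60, 9.52 and 9.50 in LCR sedentary rats and 9.70, 9.50, 9.75 and 9.63 in LCR trained rats. Only the value on HCR trained 3 left the range of the other 15 arrays, by 0.99, and all 4 groups overlapped. The trained HCR minus LCR difference was 0.24 (SE 0.19, adjusted p = 0.514), and it turned to -0.05 without HCR trained 3. Across the 16 arrays the 3 subunits correlated at r = 0.93 for Ppp3ca with Ppp3r1, 0.90 for Ppp3ca with Ppp3cb and 0.84 for Ppp3cb with Ppp3r1. These correlations are descriptions of arrays that share 4 groups, and without HCR trained 3 they were 0.36, 0.39 and -0.02 over 15 arrays. A second bright Ppp3ca probe set, 1368277_at, also read highest on HCR trained 3, at 11.62 against 9.99 to 10.98 elsewhere. So did the dimmer Ppp3cb probe set 1387261_at, at 8.67 against 7.21 to 8.60, and both other probe sets of Ppp3r1. By contrast 1379314_at of Ppp3cb read 7.76 there, within its range of 7.62 to 8.60. Signs between trained lines differed among probe sets. HCR minus LCR was -0.15 (SE 0.22) on 1368277_at, -0.43 (SE 0.30) on 1387261_at and -0.80 (SE 0.43) on 1369152_at of Ppp3r1. It was 0.11 on 1398506_at of Ppp3ca, 0.09 on 1379314_at and 0.08 on 1391213_at of Ppp3r1.

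**Figure D2:**
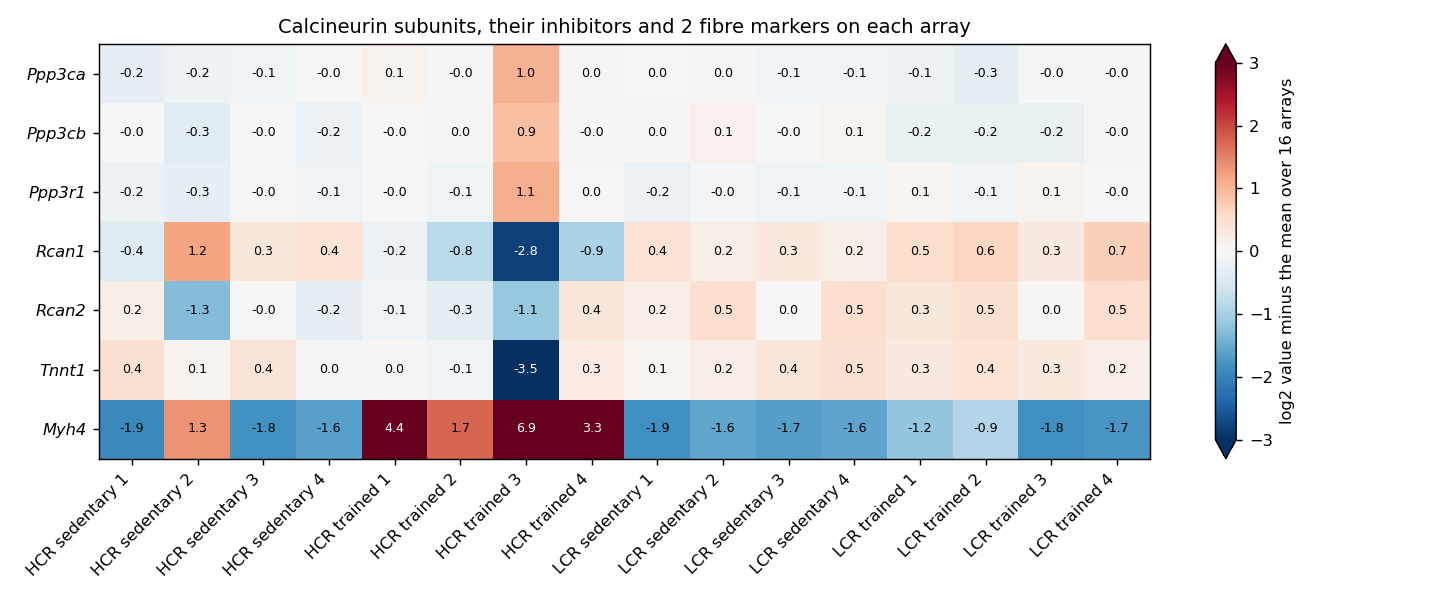
Log2 value minus the gene's mean over 16 arrays, for the 3 calcineurin subunits, the 2 inhibitors, slow troponin T (Tnnt1) and fast IIB myosin heavy chain (Myh4), 1 column per array; colours stop at 3 and numbers give the values. On HCR trained 3 the deviations were 1.05 for Ppp3ca, -2.81 for Rcan1, -3.47 for Tnnt1 and 6.88 for Myh4.

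Rcan1, the calcineurin inhibitor whose gene responds to calcineurin, had the widest range of the 10 genes on their brightest probe sets, 4.00 log2 units. It read 11.04, 10.39, 8.40 and 10.26 in HCR trained rats and 11.73, 11.82, 11.48 and 11.92 in LCR trained rats. All 4 HCR trained values lay below the 4 LCR trained ones. In sedentary rats it read 10.85, 12.40, 11.54 and 11.61 in HCR and 11.64, 11.38, 11.51 and 11.38 in LCR, and these groups overlapped. The mean was 10.02 ± 1.13 (SD, n = 4) in HCR trained, 11.60 ± 0.64 in HCR sedentary, 11.48 ± 0.13 in LCR sedentary and 11.74 ± 0.19 in LCR trained rats. Trained HCR minus trained LCR was -1.72 (SE 0.42, adjusted p = 0.0697), a 3.28-fold lower value. Without HCR trained 3 it was -1.17 (adjusted p = 0.0554), and without HCR sedentary 2 and HCR trained 3 together, also -1.17, it passed (adjusted p = 0.0139). It passed as well with array weights (-1.27, adjusted p = 0.011) and without HCR trained 1 (-2.05, adjusted p = 0.0451). Without HCR sedentary 2 alone, which left the trained values as they were, it also passed (adjusted p = 0.0456). With the beta-actin index in the model it was -1.48 (SE 0.52, adjusted p = 0.507) and did not pass. Rcan1 correlated with that index at r = -0.54 over 16 arrays and -0.21 within groups.

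For training in HCR, Rcan1 differed by -1.58 (SE 0.42, adjusted p = 0.101). HCR trained 1, at 11.04, lay above HCR sedentary 1, at 10.85, so these groups overlapped. The difference was -1.04 without HCR trained 3, -1.31 without HCR sedentary 2 and -0.77 without both. For training in LCR it was 0.26 (SE 0.42, adjusted p = 0.864), and the interaction was -1.84 (SE 0.60, adjusted p = 0.151), or -1.03 without both arrays. Averaged over training states the line difference was -0.80 (SE 0.30, adjusted p = 0.398), and averaged over lines the training difference was -0.66 (SE 0.30, adjusted p = 0.505). Several marker lists differed beside it. Of 9 fast fibre markers 5 were higher and 4 lower between trained lines (median 0.10), and 6 were higher and 3 lower for training in HCR (median 0.15). Only Myh4 passed, between trained lines (5.48, SE 0.87, adjusted p = 0.0281) and for training in HCR (5.09, SE 0.87, adjusted p = 0.0475). Actn3 (3.99) and Pvalb (4.38) were the other large differences between trained lines, whereas Tnni2, Tnnt3, Tnnc2 and Myh2 lay between -0.22 and -0.06. The slow fibre mean, taken over brightest probe sets, was low on HCR trained 3 alone, and 0.08 to 0.20 on the other HCR trained arrays. Between trained lines all 7 matrix and fibroblast markers were lower in HCR (median -1.11, 5 at an unadjusted p under 0.05), as were all 8 macrophage and leukocyte markers (median -0.51), and 0 of either list passed. For the interaction these medians were -1.95 and -0.99. The part of these markers in the Rcan1 values was not tested.

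The promoter of Rcan1 is shown because NFAT sites are the textbook route by which calcineurin acts on this gene. It comes from RefSeq's GRCr8 assembly, chr11:45118187-45118486, minus strand, 250 bases before to 50 after the start, written 5′ to 3′. Capitals mark the NFAT core GGAAA or its reverse complement TTTCC:
Rcan1: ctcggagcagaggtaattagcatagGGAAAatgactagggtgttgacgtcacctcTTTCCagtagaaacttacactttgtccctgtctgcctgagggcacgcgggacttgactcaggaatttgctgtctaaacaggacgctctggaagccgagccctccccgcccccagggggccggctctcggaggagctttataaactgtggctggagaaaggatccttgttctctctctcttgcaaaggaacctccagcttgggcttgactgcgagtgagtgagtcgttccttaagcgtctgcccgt
The letters matched at 2 places, starting 225 and 195 bases before the start. Of the 7 genes with a promoter in the table, Rcan1, Ppp3cb and Ppp3r1 held at least 1 match, and 62.5% of 27457 promoters of the same length did. A match of 5 letters is a description of the sequence and shows no binding.

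Rcan2, the second inhibitor of the family, had a lower mean in HCR than in LCR on both of its probe sets. On the brightest it read 11.00, 9.52, 10.81 and 10.57 in HCR sedentary, 10.73, 10.55, 9.67 and 11.18 in HCR trained, 11.03, 11.33, 10.85 and 11.30 in LCR sedentary and 11.16, 11.29, 10.86 and 11.32 in LCR trained rats. Lines overlapped in both training states, and the lowest values were those of HCR sedentary 2 and HCR trained 3. Averaged over training states HCR minus LCR was -0.63 (SE 0.22, adjusted p = 0.372), and -0.33 without those 2 arrays. On the dimmer probe set 1374235_at the same difference was -0.31 (SE 0.09, adjusted p = 0.266). There sedentary HCR rats, at 9.88, 9.50, 9.71 and 9.72, all lay below sedentary LCR rats, at 10.20, 10.26, 9.99 and 10.14. Trained lines overlapped on that probe set (-0.18, SE 0.12, adjusted p = 0.442). Training differences on the brightest probe set were 0.06 (SE 0.31) in HCR and 0.03 (SE 0.31) in LCR, over all 16 arrays. In HCR this value turned on single arrays, at 0.34 (SE 0.28) without HCR trained 3, -0.26 (SE 0.26) without HCR sedentary 2 and 0.02 (SE 0.18) without both, and it was -0.45 (SE 0.35) with the beta-actin index in the model.

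Nfatc1, an NFAT factor of slow-fibre gene control, was lower in sedentary HCR than in sedentary LCR rats. The values were 9.58, 8.85, 9.58 and 9.55 in HCR sedentary and 9.89, 9.87, 9.72 and 9.72 in LCR sedentary rats, with no overlap. On the brightest probe set of each gene, Nfatc1 was the only 1 of the 10 whose groups separated in that comparison, against 4.87% of all probe sets. The difference was -0.41 (SE 0.13, adjusted p = 0.534), and -0.23 without HCR sedentary 2, with the groups still apart. In trained rats the lines overlapped, at 9.47, 9.59, 9.47 and 9.65 in HCR and 9.68, 9.58, 9.57 and 9.46 in LCR. All 4 trained LCR values lay below the sedentary LCR values (-0.23, SE 0.13, adjusted p = 0.597). Averaged over training states the line difference was -0.22 (SE 0.09, adjusted p = 0.452), and -0.12 without the 2 arrays. Nfatc1 correlated with the beta-actin index at r = 0.67 over 16 arrays and 0.82 within groups. With that index in the model HCR minus LCR was -0.20 (SE 0.09) in sedentary and -0.31 (SE 0.10) in trained rats. Without it these were -0.41 and -0.03, so the closeness of the trained lines depends on the model. The training difference in LCR was -0.06 (SE 0.09) with the index, against -0.23 without it. In HCR the training difference was -0.16 (SE 0.11) with the index, against 0.15 (SE 0.13) without it.

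Nfatc3, another calcium-regulated NFAT factor, had the smallest adjusted p of the 10 genes in both comparisons with HCR trained rats. Like Rcan1 and Nfatc1, it had no other probe set of its own to compare. It read 9.02, 9.21, 9.23 and 9.08 in HCR trained, 8.73, 8.48, 8.81 and 8.93 in HCR sedentary, 8.88, 8.83, 8.85 and 8.78 in LCR sedentary and 8.78, 8.74, 8.82 and 8.77 in LCR trained rats. Every HCR trained value was above all 12 values of the other groups. For training in HCR the difference was 0.40 (SE 0.08, adjusted p = 0.0568), a 1.32-fold higher value. For HCR against LCR after training it was 0.36 (SE 0.08, adjusted p = 0.0594), 1.28-fold higher. In LCR the training difference was -0.06 (SE 0.08, adjusted p = 0.825), and the interaction was 0.46 (SE 0.11, adjusted p = 0.105). Averaged over the other factor, training gave 0.17 (SE 0.06, adjusted p = 0.346) and line 0.13 (SE 0.06, adjusted p = 0.457).

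The Nfatc3 calls turned on the fit. Between trained lines it passed with array weights (0.31, adjusted p = 0.0085) and in a fit of those 8 arrays alone (adjusted p = 0.0325). It also passed without HCR sedentary 2 (adjusted p = 0.0213) or HCR sedentary 4 (adjusted p = 0.0432), which left the trained values as they were. Without HCR sedentary 2 and HCR trained 3 together it passed too (0.33, adjusted p = 0.0238). For training in HCR it passed after median centring (0.43, adjusted p = 0.0393), with array weights (0.31, adjusted p = 0.0281) and without HCR sedentary 4 (0.46, adjusted p = 0.0356). It did not pass there without HCR sedentary 2 (0.31, adjusted p = 0.132), without HCR trained 3 (0.37, adjusted p = 0.0628) or without both (0.28, adjusted p = 0.102). With that index added to the model the differences were 0.22 between trained lines (adjusted p = 0.502) and 0.23 for training in HCR (adjusted p = 0.584). The index was 1.57 to 2.37 in HCR trained and 1.06 to 1.36 in LCR trained rats, and Nfatc3 correlated with it at r = 0.82 over 16 arrays and 0.77 within groups. These correlations are descriptions, and the arrays share groups and labelling.

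The MEF2 factors bind DNA through a shared MADS domain and are held silent by class II histone deacetylases. Mef2a gave opposite readings on different probe sets. On the brightest, 1383093_at, HCR trained rats read 10.26, 10.30, 10.21 and 10.25, above HCR sedentary rats at 9.94, 9.77, 9.95 and 10.14 and above LCR trained rats at 10.06, 10.08, 9.95 and 10.08, without overlap. LCR sedentary rats, at 10.12, 10.32, 9.97 and 10.13, overlapped the other groups. The differences were 0.30 for training in HCR (SE 0.08, adjusted p = 0.098), 0.22 between trained lines (SE 0.08, adjusted p = 0.164), -0.18 between sedentary lines (SE 0.08, adjusted p = 0.59) and 0.40 for the interaction (SE 0.11, adjusted p = 0.126). With array weights the first 2 passed, at 0.29 (adjusted p = 0.0417) and 0.24 (adjusted p = 0.0345), and without HCR sedentary 4 the first did, at 0.37 (adjusted p = 0.043). Without HCR sedentary 2 and HCR trained 3 they were 0.26 (adjusted p = 0.171) and 0.23 (adjusted p = 0.101).

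The other 3 Mef2a probe sets ran the other way. On 1392472_at HCR trained rats read 8.09, 6.27, 8.46 and 6.79 and LCR trained rats 9.10, 9.24, 8.77 and 9.19, a difference of -1.67 (SE 0.50, adjusted p = 0.103). On 1393290_at it was -1.24 (SE 0.42, adjusted p = 0.133) and on 1378360_at -0.75 (SE 0.24, adjusted p = 0.117), and on each of the 3 the trained lines did not overlap. These 3 correlated with each other at 0.96 to 0.97 over 16 arrays and with the brightest at -0.53 to -0.69. Against the beta-actin index their correlation was -0.81 for 1392472_at, -0.77 for 1393290_at and -0.68 for 1378360_at, whereas that of the brightest was 0.79. With the mean of all 4 probe sets in place of the brightest, Mef2a differed by -0.86 between trained lines and by -0.57 for training in HCR. With the index in the model the brightest probe set gave 0.10 between trained lines, 0.17 for training in HCR and 0.20 for the interaction, against 0.22, 0.30 and 0.40 without it. No direction is given for Mef2a.

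**Figure D3:**
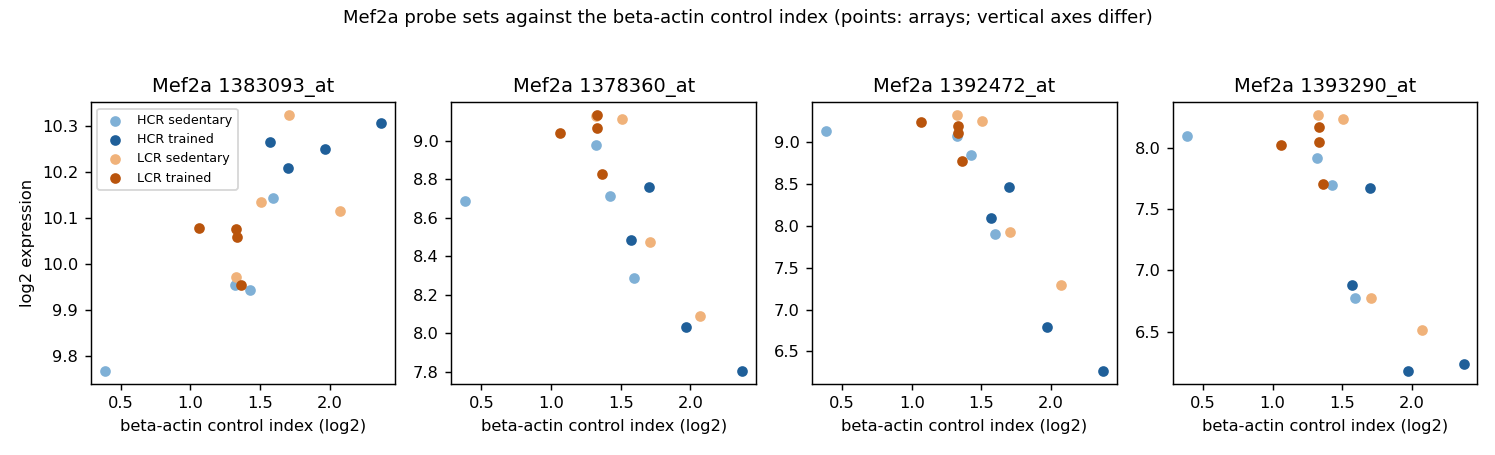
Log2 expression on the 4 Mef2a probe sets against the beta-actin control index (log2), 1 point per array, coloured by group; the vertical axes differ. The brightest probe set, at the left, climbed with the index (r = 0.79), and the other 3 went down with it (r = -0.68 to -0.81).

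The promoter of Mef2a is shown because it was the only 1 of the 7 members' promoters that held the MEF2 motif, which 1.91% of all 27457 promoters held on either strand. It lies at chr1:130392113-130392412 of GRCr8, minus strand, and is written 5′ to 3′ with the motif in capitals, starting 40 bases before the start:
Mef2a: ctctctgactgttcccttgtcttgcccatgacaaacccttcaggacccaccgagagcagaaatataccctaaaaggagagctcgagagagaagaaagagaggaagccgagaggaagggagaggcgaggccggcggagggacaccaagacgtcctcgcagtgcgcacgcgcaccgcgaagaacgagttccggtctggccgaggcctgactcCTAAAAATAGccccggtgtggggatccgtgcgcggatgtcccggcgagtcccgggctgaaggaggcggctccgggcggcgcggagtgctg
The match is a description and bears on none of the values above.

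Mef2c, a MEF2 factor strongly expressed in muscle, had the smallest range of the 10 genes on their brightest probe sets. It read 12.09, 12.39, 12.11 and 11.86 in HCR sedentary, 12.11, 12.17, 12.14 and 12.21 in HCR trained, 12.19, 12.09, 12.08 and 11.98 in LCR sedentary and 11.90, 12.19, 11.99 and 11.89 in LCR trained rats. The groups overlapped in every comparison, and the range over all arrays was 0.54, against 0.56 for Mef2a. For training in HCR the difference was 0.05 (SE 0.10), and 0.14 (SE 0.08) without HCR sedentary 2. Between sedentary lines it was 0.03 (SE 0.10), and -0.07 (SE 0.08) without that array. Between trained lines it was 0.17 (SE 0.10, adjusted p = 0.355), and 0.28 (SE 0.11, adjusted p = 0.537) with the beta-actin index in the model. Its other probe set spanned 10.83 to 12.42, also with overlap between groups.

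Mef2d, the third MEF2 factor, had trained and sedentary LCR rats apart. It read 9.28, 9.42, 9.16 and 9.26 in LCR sedentary and 8.99, 8.97, 8.97 and 8.95 in LCR trained rats, with no overlap. The difference was -0.31 (SE 0.11, adjusted p = 0.372), and it passed only without HCR sedentary 2 and HCR trained 3 together (adjusted p = 0.0432), which left the LCR values as they were. In HCR it read 9.28, 8.70, 9.14 and 9.20 in sedentary and 9.20, 9.11, 8.89 and 9.14 in trained rats, which overlapped. The HCR difference was 0.003 (SE 0.11), -0.12 (SE 0.08) without HCR sedentary 2, 0.07 without HCR trained 3 and -0.06 without both. Mef2d correlated with the beta-actin index at r = 0.69 within groups. With that index in the model the training difference was -0.21 (SE 0.11) in HCR and -0.20 (SE 0.09) in LCR. The interaction was then -0.005, against 0.31 without the index. On the dimmer probe set 1369851_at the LCR groups overlapped, at 8.03 to 8.26 sedentary and 8.09 to 8.15 trained.

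**Figure D4:**
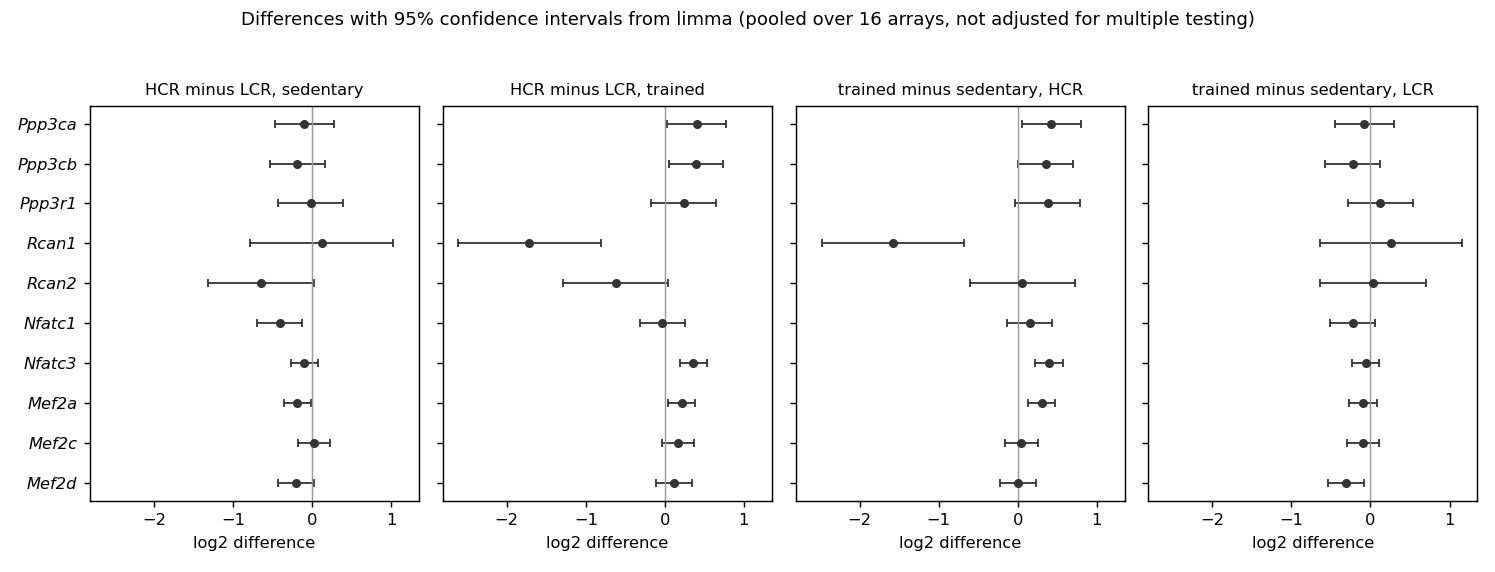
Log2 differences with 95% confidence intervals for the 10 genes in 4 comparisons, from limma on all 16 arrays and not adjusted for multiple testing. The intervals of Ppp3ca, Ppp3cb, Rcan1, Nfatc3 and Mef2a excluded 0 in both comparisons with HCR trained rats, and 0 of the 10 genes passed after adjustment.

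On the brightest probe sets, groups separated without overlap for 4 of the 10 genes between trained lines, Ppp3cb, Rcan1, Nfatc3 and Mef2a. Of all probe sets 13.6% did. For training in HCR they were Nfatc3 and Mef2a (7.61% of all probe sets), and for training in LCR Ppp3cb, Nfatc1 and Mef2d (8.5%). With both training states or both lines pooled there were 0 of 10, against 0.0805% by line and 0.0838% by training. The comparisons share groups, so their counts are not independent.

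Around the members, 34 of 37 listed pathway partners had a probe set of their own, and 0 of 34 passed in any comparison. At an unadjusted p under 0.05 there were 8 for training in HCR, 4 higher and 4 lower (17.7% of all probe sets), and 6 between trained lines, 4 higher and 2 lower (19.7%). The interaction gave 8 (18.3%), training averaged over lines 5 (9.55%) and line averaged over training states 2 (10.4%). Sedentary lines gave 3, all lower in HCR (8.37%), and training in LCR 2, both lower (9.76%). The median difference over the 34 partners was -0.01 for training in HCR and 0.04 between trained lines. Mapk14, the p38 kinase that acts on MEF2 factors, read 9.85, 9.88, 10.10 and 9.84 in HCR trained rats, above 9.41, 9.37, 9.71 and 9.61 in HCR sedentary rats. That difference was 0.39 (SE 0.08, adjusted p = 0.0547), and 0.24 between trained lines (SE 0.08, adjusted p = 0.122), again without overlap. Myoz3, a calsarcin that ties calcineurin to the Z-disc, differed by 1.03 for training in HCR (SE 0.24, adjusted p = 0.0716), with overlap.

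Ppp3cc, a further catalytic subunit, was lower in sedentary HCR than in sedentary LCR rats (-0.49, SE 0.12, adjusted p = 0.429), at 7.27 to 8.01 against 8.20 to 8.36. Hdac5, a class II deacetylase that represses MEF2, differed by -0.33 in both the sedentary line comparison (SE 0.10, adjusted p = 0.501) and training in LCR (SE 0.10, adjusted p = 0.339). Camk2b, a kinase subunit that acts on such deacetylases, differed by -0.42 for training in LCR (SE 0.12, adjusted p = 0.299). On the dimmer probe set of Camk2b, LCR trained rats, at 10.56 to 10.73, lay within the LCR sedentary range of 9.82 to 11.24. Nfat5, a factor related to NFAT, differed by -1.04 between trained lines (SE 0.33, adjusted p = 0.111). Its lowest HCR trained values were 7.03 on HCR trained 2 and 8.00 on HCR trained 4. Those arrays had the group's highest beta-actin indices, 2.37 and 1.97. On the dimmer probe set of Nfat5, HCR trained rats, at 8.05 to 8.77, spanned the LCR trained range of 8.21 to 8.50. The part of the index in the partner values was not tested. Gsk3b, which phosphorylates NFAT, differed by -1.27 in the interaction (SE 0.40, adjusted p = 0.139). Averaged over the other factor, Camk2d differed by 0.28 by line (SE 0.12, adjusted p = 0.462) and Sik1 by -0.38 by training (SE 0.11, adjusted p = 0.225). Myoz2, the calsarcin of slow fibres, read 11.29 on HCR trained 3 and 13.71 to 13.93 on the other 15 arrays, and Myoz1, that of fast fibres, 13.52 against 11.28 to 12.49.

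Genes of the most similar pattern over the 16 arrays were sought among 7993 genes, as a description of arrays that share groups. Ppp3ca was followed most closely by Gpi (r = 0.98), Fbxl4 and Mafa, Ppp3cb by Atl2 (0.96), Dennd1b and Phka1, and Ppp3r1 by Sar1b (0.98), Tpi1 and Paip1. Without HCR trained 3 these leading correlations were 0.81, 0.78 and 0.76. Rcan1 was closest to Cers5 (0.92, or 0.75 without that array), Lmcd1 and Fubp1, and Rcan2 to Clasp2 (0.93), Slc4a7 and Fam98b-ps1. Nfatc1 was closest to Pithd1 (0.95), Aldh4a1 and Selenbp1, Nfatc3 to Zfp358 (0.93), Cdkal1 and Ubl7, and Mef2a to Ncoa1 (0.93), Zfp874b and Herc3. Mef2c had the weakest match, Arhgap17 at 0.86, before Nptxr and Ap3d1, and Mef2d was closest to H2ac25 (0.92), Slc44a2 and Mccc2. Among the members themselves, Rcan1 ran against Nfatc3 at r = -0.82 over 16 arrays, -0.81 without HCR trained 3 and -0.52 within groups. Nfatc1 ran with Mef2d at 0.77, 0.78 without HCR trained 3 and 0.84 within groups. Other pairs were as close on some of these measures. Rcan1 with Ppp3cb gave -0.86 over 16 arrays and -0.54 without HCR trained 3. Rcan2 with Mef2d gave 0.59 over 16 arrays and 0.86 within groups. Ppp3cb with Mef2d gave 0.08 over 16 arrays and 0.84 without HCR trained 3. HCR sedentary 2 gave the highest value of Rcan1 and the lowest of Nfatc3, Nfatc1, Mef2d, Rcan2 and Ppp3cb. Correlations without that array were not computed. Within groups Nfatc1 and Mef2d also correlated with the beta-actin index, at 0.82 and 0.69.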

How the data were processed

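A column of log2 expression per rat, as deposited by the authors, was used. The submitters' processing notes name RMA and limma without a version, and do not say whether all 16 arrays were summarised together. Array medians ran from 5.90 to 5.98, and RMA removes shifts shared by all probe sets. No detection calls were used, and precision is limited by having 4 arrays a group. The test ran on 31042 probe sets, without the 57 controls, in limma 3.58.1 (R 4.3.3) with a mean for each of 4 groups, 12 residual degrees of freedom and Benjamini-Hochberg adjustment within each comparison. The fit was tested on simulated data.

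Of these, 20826 had a single symbol, 436 several and 9780 none. No filter on dim probe sets was applied, and all 10 genes had a brightest probe set above the 40th percentile (5.61), as did 21 of the 22. Named partners were the 2 of smallest p per comparison, since none passed, and Myoz1 and Myoz2 were chosen after their values were seen. The markers Myh7, Myh4, Tnnt1 and Tnni2 were fixed by name. Actn3, Pvalb, Tnnt3, Tnnc2 and Myh2 were named with their values known. Like genes were the 3 of highest Pearson r with a range of at least 0.5. Members and lists were chosen with earlier results of these data known. Replicate numbers showed no sign of pairing rats. Of 24 pairs of arrays with the same number 8 deviated together at r over 0.1, and of 72 with different numbers 23 did. The median r was 0.03 and 0.02. The labels name separate rats, so each p-value reflects differences among animals. Alternative settings were 10, besides leaving out each array.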

Additional observations from a re-analysis of the deposited data

Results flagged for a closer look

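Within groups of 4, a value was picked out when its gap to the nearest rat exceeded Dixon's 95% critical share of the group's range, which chance does in about 1 of 20 groups. Over 88 groups this marked 7 values, where chance would give about 4.4. On HCR trained 3 they were Ppp3ca at 11.89, Ppp3cb at 11.46 and Ppp3r1 at 10.74, against at most 10.95, 10.60 and 9.65 in the other HCR trained rats. On HCR sedentary 2 it was Nfatc1 at 8.85, against 9.55 to 9.58. The remaining values were Ppp3cb at 10.52 on LCR trained 4, against 10.34 to 10.35, Mef2a at 9.95 on LCR trained 3, against 10.06 to 10.08, and Ppp3r1 on the dim probe set 1391213_at at 5.79 on HCR sedentary 4, against 6.02 to 6.05.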

How the results depend on the processing

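Of the 23 differences with an unadjusted p under 0.05 on a brightest probe set, 19 kept their direction under all 10 settings and all 16 fits without 1 array. The exceptions were 4 of Mef2a, each under the mean of its probe sets: 0.060 between sedentary lines, -0.86 between trained lines, -0.57 for training in HCR and -0.92 for the interaction, because the probe sets disagree in sign. Of all 70 differences of the 10 genes, 33 turned sign under some setting. The count of genes that passed, 0 in each comparison, became 3 between trained lines and 2 for training in HCR with array weights (Rcan1, Nfatc3 and Mef2a, then Nfatc3 and Mef2a). It became 2 between trained lines (Rcan1 and Nfatc3) and 1 for training in LCR (Mef2d) without HCR sedentary 2 and HCR trained 3, 1 between trained lines in a fit of those groups alone (Nfatc3), and 1 for training in HCR after median centring (Nfatc3). Leaving out 1 array gave 0 to 2 between trained lines, 0 to 2 for training in HCR and 0 to 1 for the interaction. The cause was not tested. With the replicate number as a block, a pairing the labels do not support, 0 genes passed, as also with the beta-actin index in the model, after quantile normalization, without dim probe sets, and with a variance trend and robust moderation.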
